A study of Mus musculus with 12 samples.

Results

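Carbonic anhydrases are zinc enzymes that convert carbon dioxide and water into bicarbonate and a proton, and so set pH inside cells, in mitochondria and at the cell surface. The family divides by location into cytosolic enzymes, mitochondrial enzymes, a secreted enzyme and enzymes held on the outer face of the plasma membrane, and a few members have lost the catalytic activity. In solid tumours the surface enzymes are known for aiding the export of acid, and Car9 is a standard target of the hypoxia-inducible factor HIF.

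Described here are 10 carbonic anhydrase genes, Car2, Car3, Car4, Car5b, Car6, Car8, Car9, Car12, Car13 and Car14, out of 35999 gene names in the table. The family was taken up because Car4 had the lowest fold change in the anti-CD4 tumours among well measured genes, so its values in that comparison are a description with no test, and values of the same comparison for the other 9 support nothing about the family as such. All 10 had enough counts to be among the 17940 genes tested. The table holds 6 further carbonic anhydrases, Car1, Car5a, Car7, Car10, Car11 and Car15, of which 5 were tested.

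The RNA came from subcutaneous AB1-HA tumours, a transplanted mouse mesothelioma line, in male BALB/c mice aged 8 to 10 weeks. The anti-CD4 group (6 tumours) had received 100 µg of anti-CD4 antibody on days -3, 0 and 7 relative to inoculation, and the PBS group (6 tumours) had received PBS, and tumours of both groups were taken on day 9. All tumours derive from a single line, and the labels do not say which mouse a tumour came from, so p-values measure the spread between these samples. Bulk RNA cannot tell fewer cells of a type from less RNA per cell.

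Totals ran from 34453540 to 62061770 counts in anti-CD4 tumours and from 30746898 to 41933148 counts in PBS tumours. Cd4 ran from 0.618 to 2.13 CPM (counts scaled to a common library total) in anti-CD4 tumours and from 4.35 to 9.93 CPM in PBS tumours, and these ranges did not overlap. Of the mesothelial markers, Msln was at 122 ± 23.9 CPM in anti-CD4 and 126 ± 17.5 CPM in PBS tumours (SD, n = 6 each). Markers too low to be tested went in either direction. Calb2 averaged 0.0148 CPM in anti-CD4 and 0.0937 CPM in PBS tumours, and Krt18 averaged 0.048 and 0.0723 CPM. Muc16 averaged 0.649 CPM in anti-CD4 (range 0 to 2.89) and 0.00897 CPM in PBS tumours. Upk3b averaged 0.455 CPM in anti-CD4 and 0.0639 CPM in PBS tumours, and Krt19 averaged 0.233 and 0.1 CPM. Of 5 mesothelial markers tested, out of 10 listed, 1 rose, against 2.95% of all tested genes. It was Pdpn, the podoplanin gene (log2 fold change 0.33, edgeR adjusted p = 0.0186). The tumour anti-CD4 4 stood apart in these genes, with the highest level of all 12 tumours in 4 of the 10 (Car3, Car8, Car9 and Car13). It also had the highest summed adipocyte, skeletal muscle and hypoxia markers of the anti-CD4 group, so values without it are given beside several of the results that it changes.

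The promoters of Car9, Car12 and Car4 are shown because Car9 is the known HIF target, Car12 another surface enzyme whose tumours varied far less, and Car4 the gene the family was taken up for. Each window is the 250 bases before the RefSeq start in GRCm38.p6, on the plus strand, 5′ to 3′. Capitals mark ACGTG or GCGTG, the core letters of the hypoxia response element, on either strand (CACGT and CACGC on the opposite strand). Car9 is chr4:43506776-43507025, Car12 chr9:66713436-66713685 and Car4 chr11:84957504-84957753.
Car9: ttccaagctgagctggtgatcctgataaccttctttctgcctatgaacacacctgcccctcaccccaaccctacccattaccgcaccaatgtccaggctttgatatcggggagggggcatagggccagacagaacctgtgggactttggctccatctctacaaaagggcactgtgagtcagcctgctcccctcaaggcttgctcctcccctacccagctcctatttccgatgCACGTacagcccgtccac
Car12: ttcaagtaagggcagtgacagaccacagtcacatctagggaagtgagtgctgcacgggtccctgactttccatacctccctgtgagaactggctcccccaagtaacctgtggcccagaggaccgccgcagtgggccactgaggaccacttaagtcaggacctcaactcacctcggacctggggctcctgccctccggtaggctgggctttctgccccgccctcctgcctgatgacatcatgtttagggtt
Car4: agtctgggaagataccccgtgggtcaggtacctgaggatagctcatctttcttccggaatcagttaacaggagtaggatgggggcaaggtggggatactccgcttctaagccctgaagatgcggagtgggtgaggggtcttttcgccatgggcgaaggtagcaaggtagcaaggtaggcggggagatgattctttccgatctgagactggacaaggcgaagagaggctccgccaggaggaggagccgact
The Car9 window held ACGTG once, on the opposite strand, with its leftmost base 18 bases before the start, and the Car12 and Car4 windows held neither core. Promoters of 6 of the 10 genes matched the RefSeq table, and ACGTG was in 3 of them (Car6, Car9 and Car14) and GCGTG in 1 (Car5b). Among all 32851 windows of this length, 16.6% held ACGTG, 28.2% held GCGTG and 38.6% held either, so a match by itself is common.

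Car4 encodes an enzyme anchored by a lipid tail to the outside of the plasma membrane, known from capillary endothelium of the lung and other organs. It lies on chromosome 11 from 84957786 to 84966044 on the plus strand in GRCm38 and overlaps no other annotated gene. Its level was 0.317, 0.169, 0.323, 0.915, 0.191 and 0.102 CPM in anti-CD4 tumours 1 to 6, against 1.69, 5.36, 1.20, 1.19, 2.21 and 1.87 CPM in PBS tumours 1 to 6. Every anti-CD4 tumour lay below every PBS tumour, with anti-CD4 4 closest to the PBS range and PBS 2 far above the other PBS tumours. The mean was 0.336 ± 0.296 CPM in anti-CD4 tumours and 2.25 ± 1.57 CPM in PBS tumours (SD, n = 6 each), a fitted level of 15.1% of PBS and a log2 fold change of -2.73 (SE 0.53).

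Few reads stand behind these levels. The 6 anti-CD4 tumours held 6 to 46 Car4 counts each and 91 in all, and the 6 PBS tumours held 38 to 190 each and 495 in all. Every one of these estimated counts was a whole number (within 1e-06) before rounding. Without PBS 2 the log2 fold change was -2.27, and without anti-CD4 4 it was -3.38. Only 4 tested genes had a lower fold change, and each had a lower mean level: the chemokine receptor gene Ccr8 (-3.32), the lymphocyte receptor gene Klrg1 (-3.23), D930007J09Rik (-3.14) and Izumo1r, which encodes folate receptor 4 (-2.76). Just above Car4 came Cd209e (-2.34), Bcl2l14 (-2.31), Pdcd1lg2 (-2.26) and Cd4 (-2.26).

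Marker lists of several cell types differed between the groups alongside Car4, in either direction. Over all tested genes, 2.33% were called lower and 2.95% higher. CD4 and regulatory T cell markers summed to 10.6 to 21.7 CPM in anti-CD4 and 39.4 to 71.9 CPM in PBS tumours, and 7 of 7 tested members fell, among them Il2ra, an interleukin receptor chain (-1.89), and Tnfrsf4, a costimulatory receptor (-1.91). Dendritic cell markers summed to 50.1 to 85.5 CPM in anti-CD4 and 99.1 to 156 CPM in PBS tumours, and 7 of 10 fell, among them Ccr7, a homing receptor (-1.79), and Il12b, the p40 cytokine chain (-1.81). Markers of alternatively activated macrophages summed to 148 to 219 CPM in anti-CD4 and 178 to 439 CPM in PBS tumours, with PBS 2 the highest, and 1 of 9 tested members fell, Arg1, the arginase gene (-2.13). Blood endothelial markers summed to 178 to 340 CPM in anti-CD4 and 208 to 270 CPM in PBS tumours, and 0 of 12 were called in edgeR, with 1 at an unadjusted p under 0.05, Tek, the angiopoietin receptor (0.51). Fibroblast markers summed to 2.8e+04 to 3.58e+04 CPM in anti-CD4 and 1.55e+04 to 2.81e+04 CPM in PBS tumours, and 3 of 10 rose, Lum, a collagen-binding proteoglycan (0.83), Sparc, a matrix protein (0.38), and Pdgfra, a growth factor receptor (0.28). No gene of these 5 lists was at 0 in all tumours. In the lists for macrophages, eosinophils, neutrophils, erythroid cells, skeletal muscle, pericytes, mast cells, epidermis and Schwann cells, 0 members were called in edgeR, with 0 to 3 of each at an unadjusted p under 0.05. The part of any of these cell types in the Car4 difference was not tested.

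**Figure D1:**
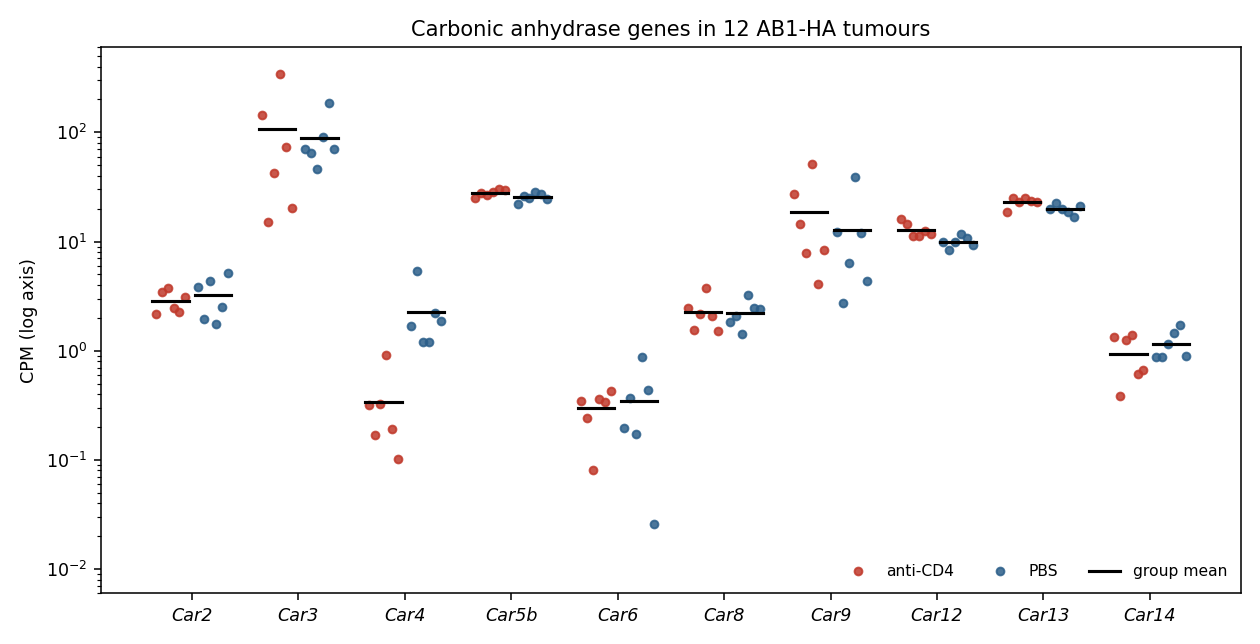
Level of each of the 10 genes in CPM on a log axis, with 1 point per tumour, anti-CD4 left of PBS, and a bar at each group mean. Car4 is the gene whose groups do not overlap, Car3 and Car9 spread widely in both groups, and Car5b, Car12 and Car13 are tight.

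Of the 10 genes, 1 was called lower at a Benjamini-Hochberg adjusted p under 0.05 in edgeR, the chosen Car4, against 2.33% of all tested genes. None was called higher, against 2.95% (5.28% in either direction), with Car12 and Car13 at an unadjusted p under 0.05 in edgeR and with 1 higher call in DESeq2 and 2 in limma voom. These percentages are from edgeR, and of all 17940 tested genes DESeq2 called 1318 higher and limma voom 2809. The lower count of 1 was 0 without anti-CD4 2, 5 or 6 and with the library total as a covariate. Lower calls over all tested genes fell in the same fits, from 418 to 33, 31, 36 and 5. Car4 was at -2.61, -2.6, -2.52 and -2.7 there. Counted by tumours, 1 of 10 had every anti-CD4 tumour below every PBS tumour, against 1.19% of tested genes, and 0 of 10 had every one above, against 1.93% (3.12% in either direction). The median log2 fold change of the 10 was 0.07, against -0.00033 for all tested genes, with 4 negative and 6 positive. Since the family was taken up for this comparison, nothing is read from these counts.

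Besides Car4, the surface enzymes are Car9, Car12 and Car14, which span the membrane with the active site outside. Car12 lies on chromosome 9 from 66713686 to 66766845 and was at 16, 14.4, 11.3, 11.3, 12.5 and 11.7 CPM in anti-CD4 tumours 1 to 6, against 9.89, 8.38, 9.90, 11.7, 10.7 and 9.34 CPM in PBS tumours 1 to 6. In 4 of the 6 anti-CD4 tumours it exceeded every PBS tumour, and PBS 4 overlapped the rest. The log2 fold change was 0.37 (SE 0.11, approximate 95% interval 0.16 to 0.58), and it did not pass in edgeR (adjusted p = 0.0564). It passed in DESeq2 (adjusted p = 0.0139), in limma voom with sample weights (adjusted p = 0.0141) and in edgeR without PBS 1 (0.37, adjusted p = 0.0472), without PBS 4 (0.42, adjusted p = 0.0464) and without both anti-CD4 3 and 4 (0.46, adjusted p = 0.036). Higher calls over all tested genes also varied, from 529 in the reported fit to 1318 in DESeq2 and 2809 in limma voom. They numbered 1160 without PBS 1, 479 without PBS 4 and 378 without both anti-CD4 3 and 4. Over all alternatives the adjusted p of Car12 ran from 0.0139 to 0.161.

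Car9, on chromosome 4 from 43506966 to 43513729, was at 27.4, 14.4, 7.90, 50.8, 4.04 and 8.29 CPM in anti-CD4 tumours 1 to 6, against 12.1, 2.71, 6.33, 38.6, 11.9 and 4.37 CPM in PBS tumours 1 to 6. The groups overlapped over most of their range. PBS 4 was far above the other PBS tumours, and anti-CD4 4 was the highest of its group, with anti-CD4 1 next at 27.4 CPM. The highest tumour was 12.6 times the lowest in the anti-CD4 group and 14.3 times in the PBS group. The log2 fold change was 0.58 (SE 0.76, 95% interval -0.90 to 2.06, edgeR adjusted p = 0.642), and it was -0.03 without anti-CD4 4 and 1.33 without PBS 4. An antisense gene, Gm12454, overlaps Car9 over 1782 bases, and the sources used here do not say whether the counting used strand.

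Car14, on chromosome 3 from 95897768 to 95904691, was low, at 0.387 to 1.39 CPM (median 0.963) in anti-CD4 and 0.875 to 1.71 CPM (median 1.02) in PBS tumours, with 3 anti-CD4 tumours below the PBS range. Its log2 fold change was -0.30 (SE 0.32, 95% interval -0.92 to 0.32, edgeR adjusted p = 0.545). Its count is treated with caution, because the span of Aph1a, a gene at a mean of 164 CPM on the opposite strand, overlaps its own over 521 bases. Whether exons overlap was not examined.

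**Figure D2:**
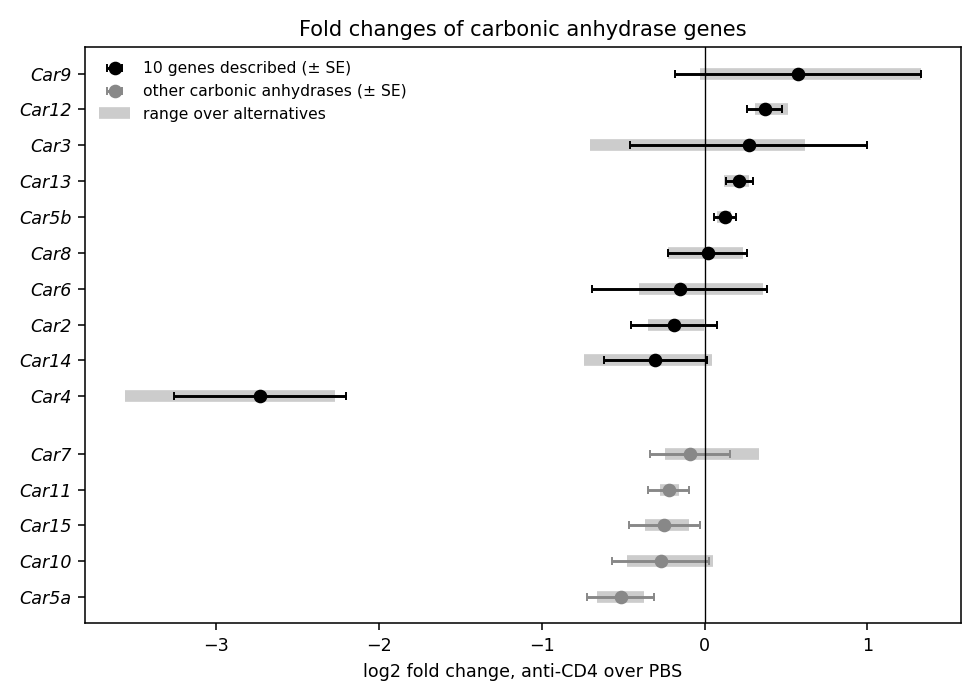
Log2 fold change of anti-CD4 over PBS for the 10 genes (black) and the 5 other tested carbonic anhydrases (grey), with standard errors and, as grey bands, the range over the alternative fits. Car4 lies at -2.73 with a band from -3.56 to -2.27, and all the others lie between -0.51 and 0.58.

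Among the cytosolic enzymes, Car2, Car3 and Car13 lie with Car1 within 259.044 kb of chromosome 3, in the order Car13, Car1, Car3 and Car2, with no other coding gene between them. Their levels differed widely. Car3, an enzyme of low activity that is abundant in fat and slow muscle, averaged 63.3 ± 74.1 CPM per kilobase in anti-CD4 and 52.5 ± 30.1 CPM per kilobase in PBS tumours (SD, n = 6 each). Car13 averaged 10.0 ± 0.99 and Car2, the fast enzyme of red cells and osteoclasts, 1.61 ± 0.38 CPM per kilobase in anti-CD4 tumours, and they averaged 8.65 ± 0.87 and 1.82 ± 0.78 CPM per kilobase in PBS tumours. Car1, an enzyme of red cells, had 4 counts in anti-CD4 4, 7 in anti-CD4 6 and 0 in the other 10 tumours, and a count of 0 over the PBS group allows up to 0.0139 CPM (3 counts over the group, counting error only).

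Car3, from 14863512 to 14872523 in that cluster, was at 145, 15.2, 42.6, 341, 73.4 and 20.1 CPM in anti-CD4 tumours 1 to 6, against 70.2, 64.5, 46.4, 89.8, 187 and 70.8 CPM in PBS tumours 1 to 6. The highest anti-CD4 tumour was 22.4 times the lowest, the PBS tumours spanned 4.04-fold, and 3 anti-CD4 tumours lay below and 1 above the PBS range. The log2 fold change of 0.27 (SE 0.73, 95% interval -1.15 to 1.69, edgeR adjusted p = 0.833) took its sign from 1 tumour, since it was -0.575 without anti-CD4 4. Summed adipocyte markers ran from 71.9 to 694 CPM in anti-CD4 and from 137 to 430 CPM in PBS tumours, with anti-CD4 4 and PBS 5 the highest in their groups, as for Car3. Of 13 tested adipocyte markers, 0 were called in edgeR and 1 was at an unadjusted p under 0.05.

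Car13, from 14641727 to 14663002, was at 18.8, 25.0, 23.1, 25.1, 23.4 and 22.9 CPM in anti-CD4 tumours 1 to 6, against 19.9, 22.7, 19.9, 18.8, 16.8 and 21.1 CPM in PBS tumours 1 to 6. In 5 anti-CD4 tumours it exceeded every PBS tumour, and anti-CD4 1 fell within the PBS range. The log2 fold change was 0.21 (SE 0.08, 95% interval 0.05 to 0.38) and did not pass in edgeR (adjusted p = 0.114), but it did without anti-CD4 1 (0.27, adjusted p = 0.0329) and in limma voom (0.27, adjusted p = 0.0143). In those settings higher calls over all tested genes numbered 1044 and 2809, against 529 in the reported fit. Over all alternatives the adjusted p of Car13 ran from 0.0143 to 0.646. Car2, from 14886273 to 14900770, ran from 2.16 to 3.76 CPM (median 2.79) in anti-CD4 and from 1.75 to 5.19 CPM (median 3.15) in PBS tumours, with complete overlap (log2 fold change -0.19, SE 0.26, 95% interval -0.70 to 0.33, edgeR adjusted p = 0.667).

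The remaining genes are the mitochondrial Car5b, the secreted Car6 of saliva, and Car8, a protein without carbonic anhydrase activity that binds the inositol trisphosphate receptor in Purkinje cells. Car5b, on the X chromosome from 163976822 to 164027997, was the steadiest of the 10, at 25.2 to 30.5 CPM (median 28.2) in anti-CD4 and 22.1 to 28.5 CPM (median 25.7) in PBS tumours (log2 fold change 0.13, SE 0.07, 95% interval -0.008 to 0.26, edgeR adjusted p = 0.238). Car8, on chromosome 4 from 8143362 to 8239041, ran from 1.53 to 3.74 CPM in anti-CD4 and from 1.42 to 3.22 CPM in PBS tumours (log2 fold change 0.02, SE 0.24, 95% interval -0.46 to 0.50, edgeR adjusted p = 0.969). Without anti-CD4 4 the log2 fold change of Car8 was -0.187 (edgeR adjusted p = 0.592). Car6, on chromosome 4 from 150187015 to 150201332, was barely present, with 3 to 25 counts in anti-CD4 and 1 to 28 counts in PBS tumours (log2 fold change -0.15, SE 0.54, edgeR adjusted p = 0.873), and its 95% interval of -1.21 to 0.90 covers changes of more than 2-fold.

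The genes also differed in how far tumours of the same group varied. The coefficient of variation was 117% in anti-CD4 and 57.3% in PBS tumours for Car3. It was 94.0% in anti-CD4 and 105% in PBS tumours for Car9, and 88.2% in anti-CD4 and 69.9% in PBS tumours for Car4. The tight genes were Car5b, with 7.06% in anti-CD4 and 8.80% in PBS tumours, Car13, with 9.85% in anti-CD4 and 10.0% in PBS tumours, and Car12, with 15.0% in anti-CD4 and 11.2% in PBS tumours.

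Per kilobase of the longest transcript, Car3 had the highest mean of the family in both groups. It exceeded Car13, the next in order, in 5 of 6 anti-CD4 and 6 of 6 PBS tumours. It made up 19.7% to 78.3% (median 50.6%) of the summed CPM per kilobase of the 16 genes in anti-CD4 tumours and 46.4% to 76.7% (median 54.6%) in PBS tumours. Car13, Car9 and Car5b followed, at 10.0, 9.30 and 8.15 CPM per kilobase in anti-CD4 and 8.65, 6.27 and 7.47 CPM per kilobase in PBS tumours. Car13 exceeded Car5b in 6 of 6 anti-CD4 tumours and in 4 of 6 PBS tumours. Car9 could not be ordered against them beyond its spread in the anti-CD4 group, where Car13 exceeded it in 4 of 6 tumours and it exceeded Car5b in 2 of 6. In the PBS group Car5b exceeded Car9 in 5 of 6 tumours. This order depended on the length used. Per kilobase of the median transcript Car9 came before Car13, at 39.2 against 10.0 in anti-CD4 and 26.4 against 8.65 in PBS tumours. It then exceeded Car13 in 5 of 6 anti-CD4 and 4 of 6 PBS tumours. Car12 came next by the longest transcript, at 3.47 ± 0.52 CPM per kilobase in anti-CD4 and 2.68 ± 0.30 in PBS tumours. In the anti-CD4 group it was below Car5b in 6 of 6 tumours. With merged exons or the median transcript, Car11 averaged above Car12 in the PBS group. Car4 ranked the eighth of 16 in PBS tumours, at 1.79 ± 1.25 CPM per kilobase, level with Car2. In anti-CD4 tumours it ranked the fourteenth, at 0.268 ± 0.236 CPM per kilobase, and exceeded Car6, the next in order, in 3 of 6 tumours. Leaving Car3 out of the sum, Car4 made up 0.248% to 1.30% in anti-CD4 and 1.94% to 12.7% in PBS tumours.

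**Figure D3:**
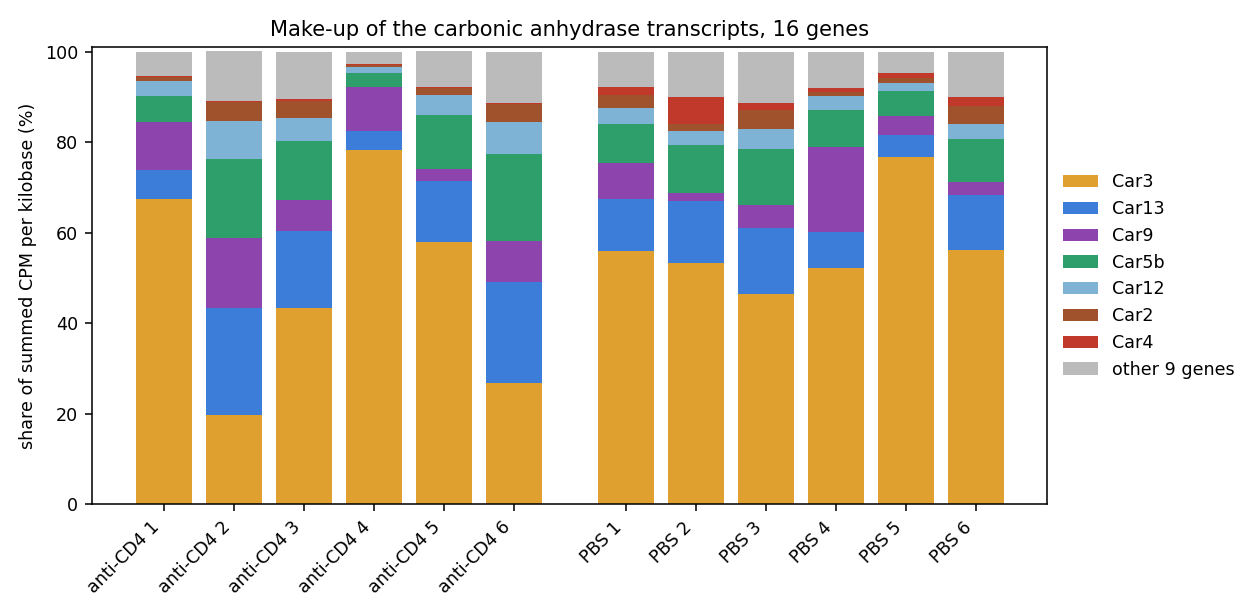
Share of each gene in the summed CPM per kilobase of the 16 carbonic anhydrases, by tumour, anti-CD4 left of PBS. Car3 (yellow) ranges from 19.7% to 78.3% in anti-CD4 tumours, and Car4 (red) is visible in the PBS tumours, up to 5.92% in PBS 2.

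The family was chosen on a fold change between the groups, and centring removes the difference between group means. Variation within the groups still enters the standard errors and p-values of that comparison. Log2 CPM values were therefore centred within each group over the 12 tumours and set against scores of marker lists (mean log2 CPM of the members) for 14 pairs, with exact two-sided permutation within groups and adjustment over the 14. Of these pairs, 6 had an adjusted p under 0.05 by Pearson's r and 1 by Spearman's rho. Without anti-CD4 4, 2 passed by Pearson's r. All values below share libraries and are correlations, not measures of cell content.

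Car3 followed the adipocyte score most closely (Pearson r = 0.97, exact permutation p = 0.0001, adjusted p = 0.0014; Spearman rho = 0.951, exact permutation p = 0.000579, adjusted p = 0.0081). Without anti-CD4 4 and 6, the tumours farthest from the median score, r was 0.939. Against the skeletal muscle score r was 0.687 (exact permutation, adjusted p = 0.0215; rho = 0.524, adjusted p = 0.114) and 0.498 without PBS 5 and anti-CD4 4 (exact permutation, adjusted p = 0.252), so that relation rested on those tumours. Leaving out anti-CD4 4 alone gave r = 0.614 (exact permutation, adjusted p = 0.0818), and the call was also lost without PBS 3 or PBS 5. The 5 genes most like Car3 of 13580 ranked, by r of centred log2 CPM over the 12 tumours, were Plin4, a lipid droplet protein (0.982), Dgat2, an enzyme of triglyceride synthesis (0.982), Gpd1, a glycerol phosphate dehydrogenase (0.973), Cdo1, a cysteine dioxygenase (0.971), and Pck1, a kinase of glyceride and glucose synthesis (0.968). Plin4 and Pck1 are also on the adipocyte list. Car14 followed the skeletal muscle score at r = 0.746 (exact permutation p = 0.00769, adjusted p = 0.0215; rho = 0.636, adjusted p = 0.0633) and 0.627 without PBS 5 and anti-CD4 4 (exact permutation, adjusted p = 0.156), where it no longer passed, as without either alone.

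Car9 followed the hypoxia score, which leaves Car9 itself out (r = 0.879, exact permutation p = 0.000503, adjusted p = 0.00352; rho = 0.741, exact permutation p = 0.0118, adjusted p = 0.0633). Without PBS 4 and anti-CD4 4, the 2 tumours highest in both, r was 0.689 and no longer passed (exact permutation, adjusted p = 0.156). It passed without either alone, at r = 0.834 without anti-CD4 4 and 0.818 without PBS 4. Within the groups r was 0.926 in anti-CD4 and 0.831 in PBS tumours. For Car12 against that score r was 0.209 (exact permutation p = 0.535, adjusted p = 0.624; rho = 0.0629, exact permutation p = 0.856), which did not pass, and r was -0.122 within anti-CD4 and 0.648 within PBS tumours. The genes most like Car9 were Rusc2 (0.955), Ndrg4 (0.939), Bnip3, a mitophagy gene induced by hypoxia (0.938), P4ha2, a collagen prolyl hydroxylase (0.928), and Ndrg1, another hypoxia-induced gene (0.925), with Bnip3 and Ndrg1 also on the hypoxia list. Rusc2 lies on the same strand of chromosome 4, 79.877 kb before Car9, with 5 coding genes between them. Those 5, looked up after the value of Rusc2 was seen, had r of 0.404 (Tesk1), -0.085 (Cd72), -0.157 (Sit1), -0.246 (Ccdc107) and -0.367 (Arhgef39) with Car9.

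Car4 followed the score of alternatively activated macrophages (r = 0.757, exact permutation p = 0.00716, adjusted p = 0.0215; rho = 0.713, adjusted p = 0.0679), but without PBS 2 and anti-CD4 4 r was 0.393 (exact permutation, adjusted p = 0.448), so that relation rested on those tumours. Against the dendritic cell score r was 0.706 (exact permutation p = 0.0125, adjusted p = 0.0291; rho = 0.65, adjusted p = 0.0732) and 0.672 without anti-CD4 3 and PBS 2, where it no longer passed (exact permutation, adjusted p = 0.156). It was also lost in 5 of the 12 settings without a single tumour, namely anti-CD4 2, 4 or 6 and PBS 2 or 3, with r = 0.65 without anti-CD4 4 (exact permutation, adjusted p = 0.0818). The other 5 scores did not pass with Car4, namely those of CD4 and regulatory T cells (r = 0.667, exact permutation, adjusted p = 0.0571), neutrophils (0.629, adjusted p = 0.0685), eosinophils (0.608, adjusted p = 0.069), blood endothelium (0.494, adjusted p = 0.201) and macrophages (0.419, adjusted p = 0.205). With a single tumour left out, r with blood endothelium ran from 0.0404 to 0.694. The genes most like Car4 were Igf2, a growth factor (0.928), Slc26a2, a sulfate transporter (0.913), Cmklr1, the chemerin receptor (0.893), Nr4a3, an orphan nuclear receptor (0.893), and Slc7a2, a transporter of arginine and other cationic amino acids (0.888). Their rho was 0.825, 0.748, 0.888, 0.79 and 0.881 in that order. As for Car3 and Car9, these genes were picked as the highest of 13580 over 12 tumours, so their values are a description with no test. For Car2 neither the erythroid (r = 0.0438, exact permutation p = 0.896) nor the macrophage score (r = 0.217, exact permutation p = 0.615) passed. The erythroid score rested on 3 tested genes of 8 listed, in libraries from which globin transcripts had been removed, so it says little about red cells.

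**Figure D4:**
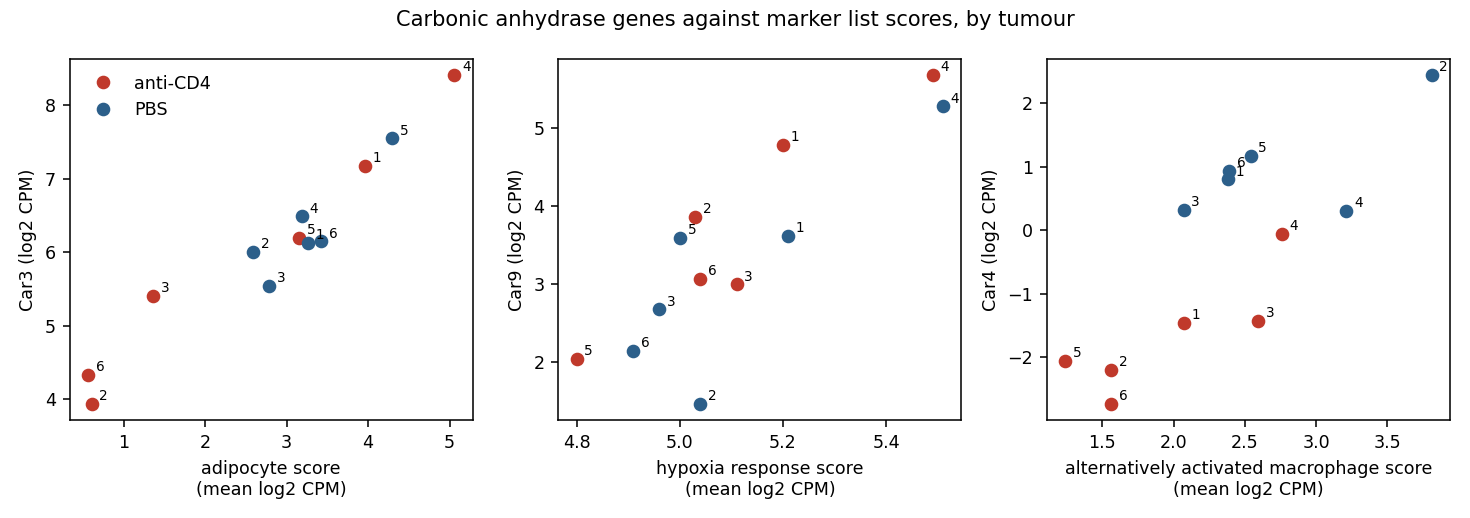
Log2 CPM of Car3, Car9 and Car4 against the score of a marker list (mean log2 CPM), 1 point per tumour with its number, anti-CD4 in red and PBS in blue. Car3 rises with the adipocyte score across the whole range, Car9 is highest in anti-CD4 4 and PBS 4, where the hypoxia score is highest, and Car4 is highest in PBS 2.

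Among the 45 pairs of the 10 genes, centred r ran from -0.862 to 0.825 with a median of 0.07, and 2 pairs had an adjusted p under 0.05 by exact permutation. Car3 and Car8 varied together (r = 0.825, adjusted p = 0.0293; rho = 0.853, adjusted p = 0.0318; exact permutation), with r = 0.665 without anti-CD4 4 and 2. That call was lost in 8 of the 12 settings without a single tumour (each anti-CD4 tumour, PBS 3 and PBS 6), with r = 0.703 without anti-CD4 4 (exact permutation, adjusted p = 0.115). Car2 and Car6 varied in opposite directions (r = -0.862, adjusted p = 0.0293; rho = -0.825, adjusted p = 0.192; exact permutation), with r = -0.735 without PBS 6 and 4. That call was lost in 7 of the 12 settings (anti-CD4 1, 2, 3 or 5 and PBS 3, 4 or 6), where r ran from -0.874 to -0.806, and Car6 held only 1 to 28 counts in a tumour. The chromosome 3 neighbours Car3 and Car2 had r = -0.447 (exact permutation p = 0.0629) and Car3 and Car13 r = -0.346 (exact permutation p = 0.326), which was -0.721 without anti-CD4 4 and 2.

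The other carbonic anhydrases and the partners of these enzymes were compared in the same edgeR fit. Of the 5 other tested carbonic anhydrases, 0 were called and all 5 had negative log2 fold changes, with 1 at an unadjusted p under 0.05. These were Car5a, the other mitochondrial enzyme (-0.51, SE 0.21, adjusted p = 0.127), Car10 (-0.27) and Car11 (-0.22), relatives without catalytic activity, Car15, another lipid-anchored enzyme (-0.25), and Car7, a cytosolic enzyme of brain (-0.09). Counts of Car5a and Car15 are treated with caution, since their spans overlap those of Gm20388 on the opposite and Gm20518 on the same strand. Whether exons overlap was not examined there either.

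Of 10 tested bicarbonate transporters, 2 fell and 0 rose, against 2.33% lower and 2.95% higher over all tested genes, with a list median of -0.27. Slc4a8, a sodium-driven chloride and bicarbonate exchanger, was at 1.97 CPM in anti-CD4 and 4.14 CPM in PBS tumours on average (log2 fold change -1.07, SE 0.20, edgeR adjusted p = 0.0201). Slc26a6, an anion exchanger, averaged 4.86 CPM in anti-CD4 and 6.15 CPM in PBS tumours (-0.34, SE 0.09, edgeR adjusted p = 0.0472) and lost its call in 10 of the 12 fits without a tumour, where its value ran from -0.356 to -0.312. Slc4a8 lost its call in 3 of those fits, without anti-CD4 2, 5 or 6. Its value there was -0.984, -1.04 and -1.01, and lower calls over all tested genes fell from 418 to 33, 31 and 36. The abundant exchangers Slc4a2 (0.06) and Slc4a7 (-0.01), which were not selected by the rule for named genes, did not pass.

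Of 10 tested genes of proton and lactate export, 0 were called in edgeR and 2 were at an unadjusted p under 0.05, Slc9a5, a sodium and proton exchanger (-0.42, adjusted p = 0.0687), and Hvcn1, a proton channel (-0.39, adjusted p = 0.082). Their median was -0.05. Of 21 hypoxia response genes, 0 were called and 3 were at an unadjusted p under 0.05, with a median of 0.04, among them Bnip3l, a mitophagy receptor (0.26, edgeR adjusted p = 0.0521), and Vegfa, the vascular growth factor (-0.33, edgeR adjusted p = 0.0738). Summed hypoxia genes were highest in anti-CD4 4 in that group and in PBS 4 in the other, the same tumours as for Car9. Over the 3 wider lists and the other carbonic anhydrases together, DESeq2 called 5 genes lower and 1 higher, and limma voom 11 lower and 3 higher. Of all 17940 tested genes, DESeq2 called 1144 lower and 1318 higher, and limma voom 3169 lower and 2809 higher.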

How the data were processed

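RNA of the 12 tumours was sequenced in paired 100-base reads after removal of ribosomal and globin transcripts, as the labels' protocols state. Tools in the submitters' processing notes are bcl2fastq 2.20.0.422 and kallisto, and the build is GRCm38.p6. The values deposited by the authors are estimated counts for each gene symbol, and 35.7% to 37.9% of them in a tumour are not whole. Neither the annotation release nor the step from transcripts to genes nor the strand setting is stated in the labels. Of 35999 names, 35973 matched GENCODE M21, the source of coordinates and lengths, and 26 names turned into dates held 0.227% of counts.

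Counts were rounded, filtered with filterByExpr, scaled by TMM and tested over all 17940 genes with the quasi-likelihood F test of edgeR 4.0.16 (R 4.3.3), with Benjamini-Hochberg adjustment. Standard errors are the fold change over the square root of F, and 95% intervals are 1.96 of them either way. CPM uses the scaled library sizes. Log2 CPM has a prior count of 2. Scripts were tested on simulated data. Chi-square per degree of freedom between tumours of a group was 8.01 to 61.1, far above sampling noise. Correlations were permuted over all 518400 orders within groups.

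The members, lists, alternatives and tests were chosen with earlier results of these data known. Named were the members, the called genes of a list or the 2 of smallest p, and the 5 genes most like Car4, Car3 and Car9 whose mean log2 CPM was at least 0 (model numbers, pseudogenes and receptor segments left out). Named after their values were seen were the genes beside Car4 in fold change and the genes beside Car9. So were Msln, Calb2, Krt18, Muc16, Upk3b, Krt19, Slc4a2 and Slc4a7. Alternatives were RLE and upper quartile scaling, DESeq2 1.42.0, limma voom 3.58.1, other filters, covariates, a replicate block and leaving out tumours.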

Additional observations from a re-analysis of the deposited data

Results flagged for a closer look

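In groups of 6 tumours, 31 sets of carbonic anhydrase levels were examined for a tumour far from the others, and 7 were found. The rule flags about 5% of groups of normally distributed values, which CPM need not be, and the sets share the same 12 tumours. No excess over chance is read from the 7. Car4 was at 5.36 CPM in PBS 2, against 2.21 CPM in the next PBS tumour, and at 0.915 CPM in anti-CD4 4, against 0.323 CPM in the next anti-CD4 tumour. Car3 was at 187 CPM in PBS 5, with 89.8 CPM next. Car9 was at 38.6 CPM in PBS 4, with 12.1 CPM next. Car13 was lowest in anti-CD4 1, at 18.8 CPM, with 22.9 CPM next. Car11 reached 3.82 CPM in anti-CD4 5, with 3.28 CPM next, and Car15 reached 2.28 CPM in PBS 6, with 1.51 CPM next.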

How the results depend on the processing

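The count of 1 lower gene among the 10 was 0 with a replicate block and 0 with the library total added as a covariate (Car4 at -2.70), and ran from 0 to 1 when 1 tumour was left out. It was 0 without anti-CD4 2, 5 or 6, and group and library total overlap in part, since the anti-CD4 libraries were deeper on average. Lower calls over all tested genes, 418 in the reported fit, numbered 14 with the block and 5 with the library total. They numbered 33, 31 and 36 without anti-CD4 2, 5 or 6. Same-numbered tumours did not deviate together (r from -0.409 to 0.229), so the numbers are not taken as pairs, and under the block Car4 was at -2.80 and the pathway lists held 0 lower calls. Higher calls among the 10, 0 in the reported fit, numbered 1 in DESeq2, 2 in limma voom and 1 without both anti-CD4 3 and 4, and 0 to 1 without a tumour. Lower calls in the 4 pathway lists, 2 in the reported fit, numbered 1 with upper quartile scaling, 5 in DESeq2, 11 in limma voom, 1 with no filter, 7 without both anti-CD4 3 and 4, 0 with the library total, 1 with adipocyte and muscle scores, and 0 to 6 without a tumour. Higher calls there, 0 in the reported fit, numbered 1 with RLE factors, 1 in DESeq2 and 3 in limma voom, and 0 to 1 without a tumour. Calls over all tested genes moved too, from 418 lower and 529 higher to 1144 and 1318 in DESeq2 and 3169 and 2809 in limma voom. They numbered 325 and 179 with upper quartile scaling, 251 and 272 with no filter, and 705 and 378 without both anti-CD4 3 and 4. The causes were not tested.

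Signs turned round only for genes that were not called. Car3 was at -0.704 in limma voom, -0.425 with the replicate block and -0.477 without both anti-CD4 3 and 4, and ran from -0.575 to 0.62 without a tumour. Car8 was at -0.0305 with upper quartile scaling, -0.00425 in limma voom, -0.00831 with the block and -0.227 without both tumours, and ran from -0.187 to 0.15. Car6 was at 0.27 in limma voom and 0.0148 without both tumours, and ran from -0.403 to 0.359. With the library total Car14 was at 0.0483, Car7 at 0.333 and Car10 at 0.0508. Without a tumour Car9 ran from -0.03 to 1.33 and Car7 from -0.219 to 0.0125. The log2 fold change of Car4 stayed between -3.56 and -2.27 in the 22 alternatives run.

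Of the 14 list correlations, 6 passed in the reported setting, 1 without the 2 farthest tumours (Car3 with adipocytes), and 2 to 8 without a tumour. Car4 with macrophages was at -0.0279 without its 2 farthest tumours. Without a tumour Car12 with hypoxia ran from -0.0845 to 0.51, Car2 with erythroid from -0.142 to 0.395 and Car2 with macrophages from -0.111 to 0.665. Correlated pairs among the 10, 2 in the reported setting, ran from 0 to 3 without a tumour, an alternative chosen after seeing the data. With merged exon lengths 6 of the 10 genes held their rank per kilobase. With median transcript lengths Car9 moved to rank 2 of the 10 and Car13 to rank 3. Depth limits Car4, Car6 and Car14 most.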
